A study of Mus musculus with 7 samples.

Results

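The genes described here encode the inhibin and activin subunits, the follistatins that bind activins, and the receptors of these hormones. They are Inha, Inhba, Inhbb, Fst, Fstl3, Tgfbr3, Acvr1b, Acvr2a and Acvr2b, chosen by symbol. All 9 were found among the 35976 gene symbols of the deposited table, and all 9 reached the mean of 10 normalized counts from which genes were tested. The sequenced RNA came from whole adrenal glands. All mice were C57BL/6J, an inbred strain, with no treatment named. The 7 libraries were E18.5, an embryonic stage shortly before birth (40 glands, sex not determined), postnatal day 1 or P1 (16 glands from males, 22 from females), 2 weeks (6 glands for each sex) and 12 weeks (4 glands for each sex). Each library was 1 pool of glands, so no age and sex group had a replicate.

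Inhibins and activins are secreted dimers of the transforming growth factor beta superfamily. An inhibin joins the alpha subunit (Inha) to a beta subunit (Inhba or Inhbb), whereas activins join beta subunits only. Activins bind the type II receptors ACVR2A and ACVR2B, which recruit the type I receptor ACVR1B, and the signal passes to the nucleus through SMAD2 and SMAD3. Follistatin and FSTL3 bind activins and keep them from their receptors. Inhibin, helped by the co-receptor betaglycan (Tgfbr3), occupies type II receptors without signalling. Inhibins are best known from the gonads and the pituitary, but the adrenal cortex also makes the alpha subunit. Mice without Inha develop tumours of the adrenal cortex after their gonads are removed.

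Total reads in genes ranged from 15184210 to 23551289 per library. The members had between 22 reads (Fst, 12-week male) and 10510 reads (Tgfbr3, 2-week male). Values are the authors' normalized counts, and a bracketed 95% interval is exact and covers counting error only. The cortex marker list (10 genes, among them Nr5a1, Star and Cyp11a1) was above 3 reads in every library, and so were the 9 chromaffin genes of the medulla. In the library labelled P1 female, transcripts of 4 genes of the Y chromosome reached a median of 21.0% of their P1 male level (15.6 to 28.1%). Xist, the transcript of the inactive X chromosome, was at 8103 normalized counts there and at 22.1 in P1 male, so that library holds female transcripts and some male ones. The cortex list summed to 436541 and 261645 normalized counts in the male and female-labelled P1 libraries. At E18.5 the cortex list summed to 632157, liver genes (8) to 286827 and skeletal muscle genes (10) to 36455. In the P1 libraries, male first, liver genes summed to 371616 and 290231, and skeletal muscle genes to 72648 and 142592. Kidney genes (8) summed to 3118 and 645 in these P1 libraries, and exocrine pancreas genes (8) to 6285 and 96.0. Every comparison with P1 uses these libraries. In whole glands, fewer cells of a type and less RNA per cell cannot be told apart.

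Inha fell most of the 9 genes from E18.5 to 12 weeks. At E18.5 Inha was at 3223 (3122 to 3327) normalized counts. For Inha the male libraries held 1841 (1766 to 1919) at P1, 1272 (1207 to 1339.8) at 2 weeks and 120.2 (96.2 to 148) at 12 weeks, and those labelled female 442 (399 to 487), 1352 (1286 to 1422) and 81.5 (63.7 to 103). Both 12-week libraries lay below all others, and the library labelled P1 female lay below P1 male and both 2-week libraries. Inha lies at chr1:75507077-75510366 on the plus strand of mm10, the build named in the submitters' processing notes, with coordinates from the GENCODE M21 annotation of that build.

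Between 2 weeks and 12 weeks Inha fell by 3.71 on the log2 scale (SE 0.459, adjusted p 0.00479 in limma, lower in 2 of 2 sexes). The fall was 10.6-fold (8.51 to 13.3) in males and 16.6-fold (13.1 to 21.3) in females. It passed the threshold in every fit that left out 1 library. Without the filter on low values the call from 2 weeks to 12 weeks was lost (adjusted p 0.111 in limma), a setting in which 0 of all genes passed. Between P1 and 12 weeks Inha fell by 3.17 (SE 0.459, adjusted p 0.00267). Between P1 and 2 weeks the fitted difference was 0.54 (SE 0.459, adjusted p 0.462), with a lower value in 2-week males and a higher one in 2-week females. Without the library labelled P1 female that difference was -0.37 (adjusted p 0.486), and without 2-week female it was -0.16 (adjusted p 0.903).

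Of the 10 cortex genes, 7 were higher and 3 lower at 12 weeks than at 2 weeks in each sex. The list summed to 541751 normalized counts in 2-week male and 870255 in 12-week male, and to 548024 and 1144112 in the female libraries. Nr5a1, a transcription factor of steroid-making cells, went from 9640 to 6146 in males and from 9100 to 11600.0 in females. X-zone genes (3) mark an inner cortical layer of young and female mice. Over the same step they summed 5.24-fold lower in males and 7.18-fold lower in females, with 3 and 2 of the 3 genes lower. Of 6 genes of the zona glomerulosa, an outer cortical layer, 6 were lower in males and 5 in females. The part of these lists in the Inha fall was not tested. Set against Cyp11a1, which makes the first step of steroid synthesis, Inha was at 4.34% at E18.5, at 3.68 and 2.01% in the male and female-labelled P1 libraries and at 3.30% in both 2-week libraries. At 12 weeks it was at 0.191% in males and 0.126% in females. Gonad genes were also examined, since gonads make much inhibin. Fshr, the receptor of follicle-stimulating hormone, and Insl3, a Leydig cell hormone, had 0 reads in all 7 libraries, and Amh was at 4.20 normalized counts or less. Of the other 5 gonad genes, Sox9 was at 17.0 to 130.9, Ddx4 at 8.39 to 40.3 and Dazl at 2.26 to 9.70, while Dmrt1 reached 0.818 and Foxl2 12.4 (12-week female). The whole list summed to 58.8 to 173.5, and its part in the Inha values was not tested.

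Inhba, the beta A subunit, was highest around birth. At E18.5 Inhba was at 99.98 (82.8 to 119.6) normalized counts. For Inhba the male libraries held 98.2 (81.4 to 117) at P1, 24.9 (16.6 to 36.0) at 2 weeks and 58.7 (42.3 to 79.4) at 12 weeks, and those labelled female 224 (194 to 257), 36.2 (26.0 to 49.1) and 26.0 (16.5 to 39.0). The P1 libraries lay above the 4 later ones. Inhba lies at chr13:16011851-16031621 on the plus strand. From P1 to 2 weeks it fell by 2.27 on the log2 scale (SE 0.552, adjusted p 0.0380, lower in 2 of 2 sexes), and from P1 to 12 weeks by 1.90 (SE 0.552, adjusted p 0.0336). From 2 weeks to 12 weeks the difference was 0.37 (SE 0.552, adjusted p 0.688), and the 2 sexes went opposite ways.

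These Inhba calls rested on few reads, 23 to 203 per library. The first was lost without P1 male (adjusted p 0.126), P1 female (0.282), 2-week male (0.268) or 2-week female (0.156). The second was lost without P1 male (0.0697), P1 female (0.291), 2-week male (0.0592), 2-week female (0.0586) or 12-week female (0.128). Without 12-week female the step from 2 weeks to 12 weeks passed as a rise of 1.37 (adjusted p 0.0461), and without 12-week male it was -0.63 (adjusted p 0.412). The capsule and mesenchyme list (8 genes, Col1a1 among them) was lower too, going from a sum of 57326 to 17568 in males and from 68998 to 20321 in females between P1 and 2 weeks. Its part in the result was not tested.

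Inhbb, the beta B subunit (chr1:119415465-119422248, minus strand), did not pass the threshold between any ages. At E18.5 Inhbb was at 124 (105 to 146) normalized counts. For Inhbb the male libraries held 183 (160.1 to 209) at P1, 114 (94.99 to 135) at 2 weeks and 231 (197 to 269) at 12 weeks, and those labelled female 238 (208 to 272), 136 (115 to 159) and 117 (95.1 to 141). E18.5, both 2-week libraries and 12-week female were low, and both P1 libraries and 12-week male were high. The fitted differences were -0.74 (SE 0.361, adjusted p 0.209) over the first step, 0.40 (adjusted p 0.495) from 2 weeks to 12 weeks and -0.35 (adjusted p 0.472) from P1 to 12 weeks. The call depended on the 12-week libraries. The first difference passed without 12-week male (adjusted p 0.0383) or 12-week female (0.0319). The second was 1.04 without 12-week female (adjusted p 0.0355), and the third -0.995 without 12-week male (adjusted p 0.0274).

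**Figure D1:**
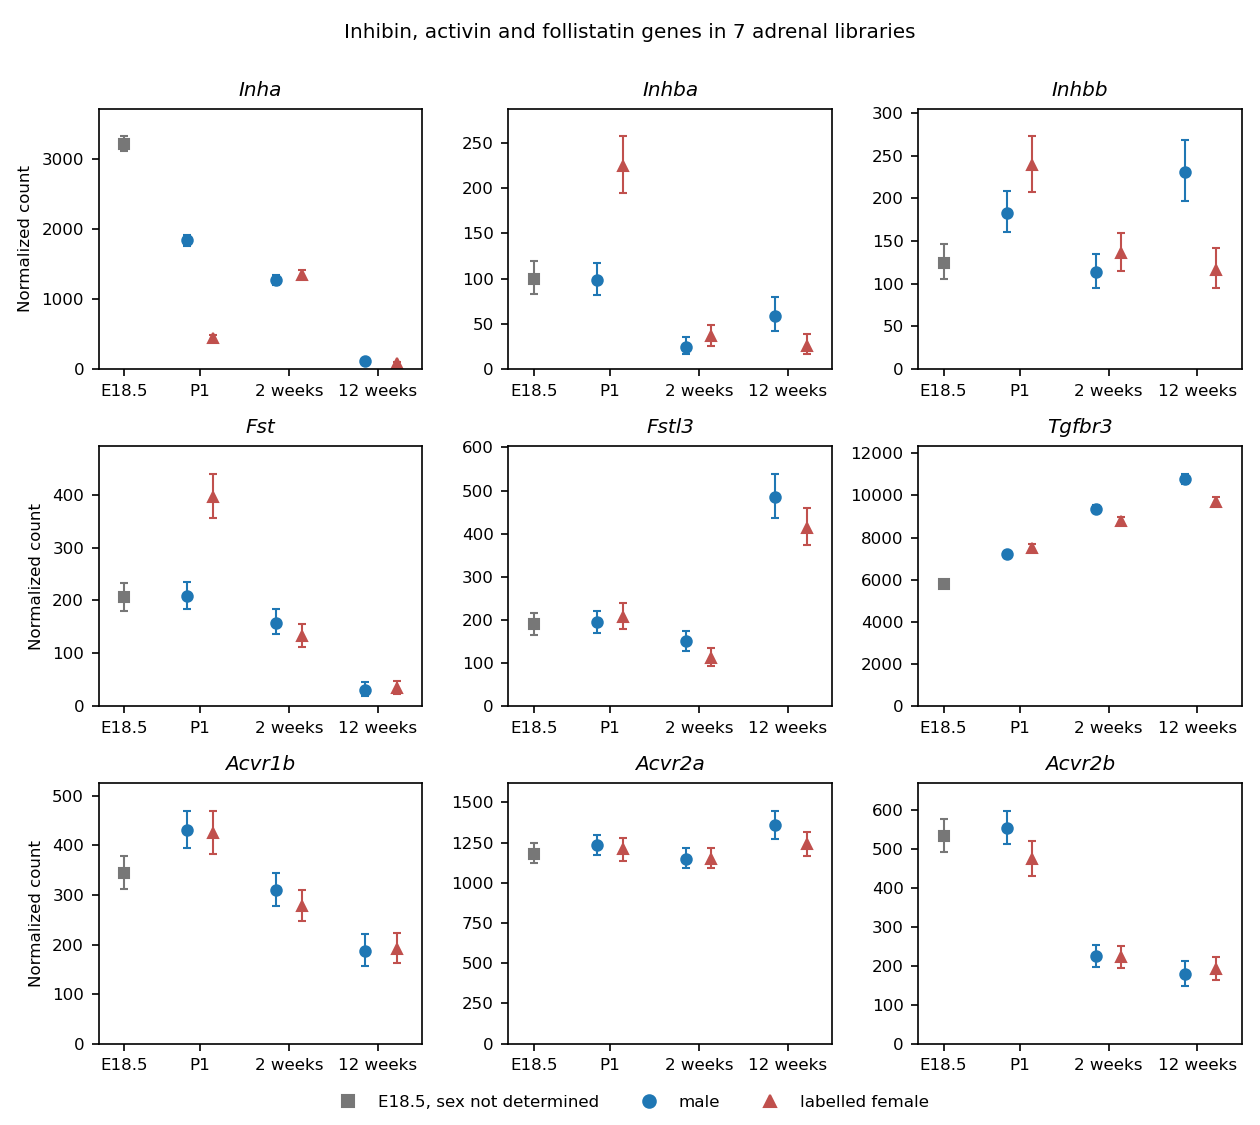
Normalized counts (linear axis from 0) of the 9 genes in each library by age, with bars for the 95% counting interval of a single pool. Inha, Fst, Acvr1b and Acvr2b are lowest at 12 weeks, Fstl3 is highest there, and the library labelled P1 female stands away from P1 male for Inha, Inhba and Fst.

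Per length of exon, the alpha subunit exceeded the beta subunits in all 7 libraries, by a ratio that was smallest at 12 weeks. Counts were divided by the summed length of all annotated exons, 1.475 kb for Inha, 6.39 kb for Inhba and 4.255 kb for Inhbb. The ratio of Inha to Inhba plus Inhbb was 48.7 at E18.5. At P1 it was 21.4 for males and 3.29 for the library labelled female, and at 2 weeks 28.1 and 24.4. At 12 weeks it was 1.29 in males and 1.76 in females. These ratios carry no interval, and they depend on the exon lengths used. Without division by length, Inhbb alone was above Inha at 12 weeks. It was at 231 against 120.2 normalized counts in males and at 117 against 81.5 in females. Inhbb exceeded Inhba per kilobase in every library, with a ratio of Inhba to Inhbb between 0.146 (2-week male) and 0.626 (P1 female).

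The activin-binding proteins went opposite ways after 2 weeks. Fst encodes follistatin, which binds activins almost irreversibly. At E18.5 Fst was at 206 (181 to 233) normalized counts. For Fst the male libraries held 208 (183 to 235) at P1, 158 (136 to 183) at 2 weeks and 30.8 (19.3 to 46.6) at 12 weeks, and those labelled female 396 (356 to 439), 133 (113 to 156) and 33.9 (22.9 to 48.5). The 12-week libraries lay far below the other 5, and the library labelled P1 female lay above the rest. Fst fell by 2.13 on the log2 scale from 2 weeks to 12 weeks (SE 0.333, adjusted p 0.00982, lower in 2 of 2 sexes). Without 2-week male (adjusted p 0.125) or 2-week female (0.0549) that call was lost. Over this step 5 of 8 capsule and mesenchyme genes were higher in males and 4 of 8 in females, while their sum was 1.19-fold and 1.52-fold lower. The liver list was 28.0-fold and 91.5-fold lower and the skeletal muscle list 1.55-fold and 21.9-fold. The part of these lists in the Fst fall was not tested. From P1 to 12 weeks it fell by 3.11 (SE 0.333, adjusted p 0.000886), and the step from P1 to 2 weeks was -0.98 (SE 0.333, adjusted p 0.0974). That first step passed without 12-week male (adjusted p 0.0214) or 12-week female (0.0220). Fst lies at chr13:114452290-114458951 on the minus strand.

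Fstl3 encodes a smaller follistatin-like protein that also binds activins and myostatin, and lies at chr10:79777272-79782630 on the plus strand. At E18.5 Fstl3 was at 189.9 (166 to 216) normalized counts. For Fstl3 the male libraries held 195 (171 to 221) at P1, 150.3 (129 to 175) at 2 weeks and 485 (435 to 539) at 12 weeks, and those labelled female 208 (179 to 239), 113 (94.2 to 134) and 414 (373 to 459). Both 12-week libraries lay above all others. It rose by 1.77 on the log2 scale from 2 weeks to 12 weeks (SE 0.216, adjusted p 0.00463, higher in 2 of 2 sexes), which was 3.23-fold (2.68 to 3.90) in males and 3.67-fold (2.99 to 4.52) in females. Without 2-week female the adjusted p was 0.0702. From P1 to 12 weeks it rose by 1.15 (SE 0.216, adjusted p 0.00699), and without P1 male the adjusted p was 0.0731. From P1 to 2 weeks the difference was -0.62 (SE 0.216, adjusted p 0.102).

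Adipocyte genes were examined beside Fstl3, since fat surrounds the gland. The list (8 genes, Adipoq among them) summed to 42551 normalized counts in 2-week male and 35988 in 12-week male, and to 47127 and 28659 in the female libraries. At P1 it was 2893 and 3065. Ucp1, a gene of brown fat, went from 19373 to 2705 in males and from 21706 to 2197 in females, while Retn went from 151.2 to 1446 in males. From 2 weeks to 12 weeks 5 of the 8 genes were higher in males (median log2 difference 1.06) and 4 of 8 in females (0.083). The part of this list in the Fstl3 rise was not tested. In the annotation, exons of Prss57 on the opposite strand cover 47.3% of the Fstl3 exons. The use of strand in counting is not given in the sources used here, so it is not known how reads in this overlap were counted. Prss57 was listed at 5.52 to 9.79 normalized counts in the 7 libraries.

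The sequences just upstream of Inhba and Fstl3 are shown because these genes went opposite ways between P1 and 12 weeks. RefSeq promoter entries matched 7 of the 9 genes. Inha, Acvr1b and Acvr2b also fell over that step and had entries, which are not shown. In the Inha window 160 of the 250 bases lie in annotated exons. Shown are the bases before the RefSeq start (GRCm38.p6), 5′ to 3′ on the plus strand, with bases in annotated exons left out. Capitals mark TATAAA or its reverse complement. Inhba is chr13:16011601-16011850 and Fstl3 is chr10:79777024-79777271.
Inhba: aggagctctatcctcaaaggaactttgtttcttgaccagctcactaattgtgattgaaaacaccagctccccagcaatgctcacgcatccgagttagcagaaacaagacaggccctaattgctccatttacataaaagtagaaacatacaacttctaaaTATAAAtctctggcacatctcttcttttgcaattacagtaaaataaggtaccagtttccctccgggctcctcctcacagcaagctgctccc
Fstl3: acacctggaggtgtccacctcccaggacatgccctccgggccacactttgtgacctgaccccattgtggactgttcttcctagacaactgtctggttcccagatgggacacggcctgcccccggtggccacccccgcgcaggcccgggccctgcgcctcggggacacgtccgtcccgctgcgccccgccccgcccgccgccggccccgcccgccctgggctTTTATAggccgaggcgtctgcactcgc

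The upstream windows differed in base composition. G and C made up 43.2% of the Inhba window and 71.4% of the Fstl3 window, against a median of 52.4% (quartiles 45.2 and 61.2%) over 32851 promoters. The match in the Inhba window is TATAAA itself and begins at -91 from the start. In the Fstl3 window it is the reverse complement, TTTATA, and begins at -29. TATAAA occurs on either strand in 12.4% of all promoters at the length of the Inhba window and in 12.3% at that of the Fstl3 window. Neither window holds the SF-1 half-site AAGGTCA on either strand, which 4.08% of promoters hold at the Inhba length. Nor was the cAMP response element TGACGTCA (1.55%) found. The GATA site AGATAA (9.99%) was absent as well, so no match overlapped another.

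Per kilobase, the ratio of Fst to Fstl3 was 0.578 at E18.5, 0.569 and 1.02 at P1, male library first, and 0.561 and 0.629 at 2 weeks. At 12 weeks it was 0.0338 for males and 0.0437 for females. The 5 earlier libraries thus lay within 0.561 to 1.02, and both 12-week libraries below 0.05. These ratios use Fstl3 counts for which the handling of the Prss57 overlap is not known.

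**Figure D2:**
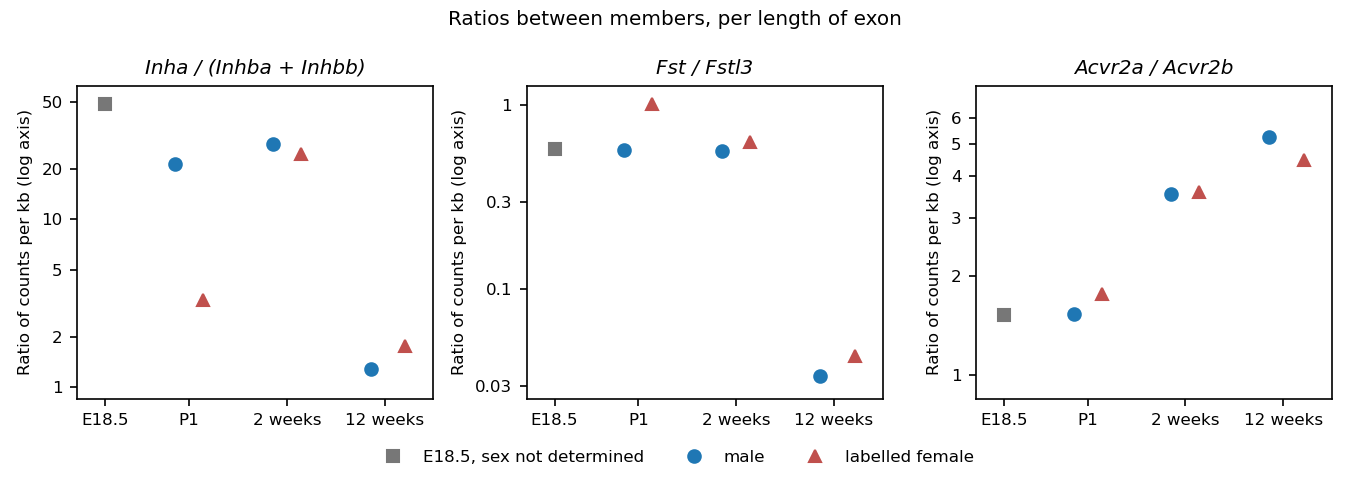
Ratios of normalized counts per kilobase of exon between members in each library (log axes), with 1 point per pool and no error. Inha against its beta subunits and Fst against Fstl3 are lowest at 12 weeks, while Acvr2a against Acvr2b rises from 1.53 at E18.5 to 5.25 in 12-week male.

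Tgfbr3 encodes betaglycan, the co-receptor that gives inhibin its high affinity. At E18.5 Tgfbr3 was at 5823 (5687 to 5962) normalized counts. For Tgfbr3 the male libraries held 7201 (7051 to 7353) at P1, 9349 (9171 to 9529.8) at 2 weeks and 10787 (10547 to 11030.1) at 12 weeks, and those labelled female 7530.2 (7353 to 7711), 8786 (8614 to 8960.4) and 9699 (9495 to 9907). Each later age lay above the one before in both sexes. It rose by 0.47 on the log2 scale from P1 to 12 weeks (SE 0.153, adjusted p 0.0468), while the first step (0.30, adjusted p 0.229) and the later one (0.17, adjusted p 0.477) did not pass. The call sat at the threshold. It was lost in each of the 6 fits that left out 1 library (adjusted p 0.0805 to 0.210), with equal totals (0.102) and in edgeR (0.0624). Tgfbr3 lies at chr5:107106570-107289629 on the minus strand.

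Within the set, Tgfbr3 took 24.3% of the summed level per kilobase of the 9 genes at E18.5 and 70.9 to 72.1% at 12 weeks. Inha took 59.6% at E18.5 and 2.69 to 3.51% at 12 weeks. Inha was the highest of the 9 per kilobase at E18.5 and in P1 male, and Tgfbr3 was in the other 5 libraries. In 12-week female Tgfbr3 was followed by Acvr2a (218.3 normalized counts per kilobase), Fstl3 (169.4), Inha (55.2), Acvr2b (48.7), Acvr1b (43.3), Inhbb (27.4), Fst (7.40) and Inhba (4.07). In that order the counting intervals of Inha and Acvr2b, of Acvr2b and Acvr1b, and of Fst and Inhba overlapped, and those of the other neighbours did not.

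The type II receptors differed from each other. At E18.5 Acvr2a was at 1182 (1121 to 1246) normalized counts. For Acvr2a the male libraries held 1232 (1171 to 1296) at P1, 1151 (1089 to 1216) at 2 weeks and 1359 (1275 to 1447) at 12 weeks, and those labelled female 1208 (1137 to 1281), 1151 (1089.7 to 1216) and 1241 (1169 to 1317). Its highest library was 1.18 times its lowest, the narrowest range of the 9 genes. No age comparison passed, with differences of -0.08 (SE 0.141, adjusted p 0.726), 0.17 (adjusted p 0.440) and 0.09 (adjusted p 0.635). With equal totals the last was -0.03 (adjusted p 0.886). Acvr2a lies at chr2:48814109-48903269 on the plus strand, and 7.84% of its exon bases are also exons of Orc4 on the opposite strand, which was listed at 723.0 to 1858 normalized counts.

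Acvr2b, the other type II receptor (chr9:119402118-119434995, plus strand), was high up to P1 and low from 2 weeks on. At E18.5 Acvr2b was at 534 (494 to 578) normalized counts. For Acvr2b the male libraries held 555 (514 to 598) at P1, 224 (197 to 254) at 2 weeks and 179 (149 to 213) at 12 weeks, and those labelled female 474 (429.8 to 521), 222 (196 to 252) and 191 (163 to 222). The libraries up to P1 lay above all later ones. It fell by 1.20 on the log2 scale from P1 to 2 weeks (SE 0.193, adjusted p 0.0113, lower in 2 of 2 sexes) and by 1.47 from P1 to 12 weeks (SE 0.193, adjusted p 0.00194). The step from 2 weeks to 12 weeks was -0.27 (adjusted p 0.381). The first call was lost without P1 male (adjusted p 0.128), P1 female (0.0890), 2-week male (0.141) or 2-week female (0.0972), and the second in none of the 6. From P1 to 2 weeks 7 of 8 capsule and mesenchyme genes were lower in males and 8 of 8 in females. Over that step the liver list was 25.1-fold and 7.60-fold lower (males, then females), the skeletal muscle list 70.6-fold and 11.1-fold, and the kidney list 500.8-fold and 56.2-fold. The part of these lists in the falls of Acvr2b and Inhba was not tested. Per kilobase, the ratio of Acvr2a to Acvr2b was 1.53 at E18.5 and in P1 male, 1.76 in P1 female, 3.55 and 3.58 at 2 weeks, and 5.25 and 4.48 at 12 weeks.

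Acvr1b encodes the type I receptor also called ALK4 and lies at chr15:101174067-101213684 on the plus strand. At E18.5 Acvr1b was at 344 (312 to 379) normalized counts. For Acvr1b the male libraries held 430.4 (394 to 469) at P1, 309.6 (278 to 344) at 2 weeks and 187 (157 to 222) at 12 weeks, and those labelled female 425 (384 to 469.6), 278 (248 to 310.3) and 191 (163 to 222). The 3 postnatal ages did not overlap. It fell by 1.17 from P1 to 12 weeks (SE 0.184, adjusted p 0.00361, lower in 2 of 2 sexes), a call kept in the 6 fits that left out 1 library. The single steps were -0.54 (SE 0.184, adjusted p 0.0964) and -0.63 (adjusted p 0.0662). The second passed with equal totals (-0.80, adjusted p 0.0305). From P1 to 12 weeks the capsule and mesenchyme list was 3.89-fold and 5.17-fold lower (males, then females), with 7 of 8 genes lower in each. The skeletal muscle list was 109.6-fold and 242.8-fold lower and the liver list 705-fold and 695-fold. The cortex list was 1.99-fold and 4.37-fold higher, and the adipocyte list 12.4-fold and 9.35-fold. The part of these lists in the Acvr1b fall was not tested.

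Over the 9 genes, 2 fell and 0 rose between P1 and 2 weeks, where 16.4% of the 16720 genes tested passed (10.5% fell and 5.89% rose). Between 2 weeks and 12 weeks 2 fell and 1 rose, against 15.3% of all genes (9.89% fell and 5.4% rose). With libraries scaled to equal totals, which moves every gene by -0.17 on the log2 scale in that comparison and by -0.12 from P1 to 12 weeks, 2514 genes fell and 647 rose, against 1654 and 903. Between P1 and 12 weeks 5 fell and 2 rose, against 41.2% of all genes, of which 23.5% fell and 17.6% rose. The median log2 differences of the 9 genes were -0.62, 0.17 and -1.17 in the 3 comparisons, and those of all genes 0.00, -0.03 and -0.03. These comparisons share libraries.

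**Figure D3:**
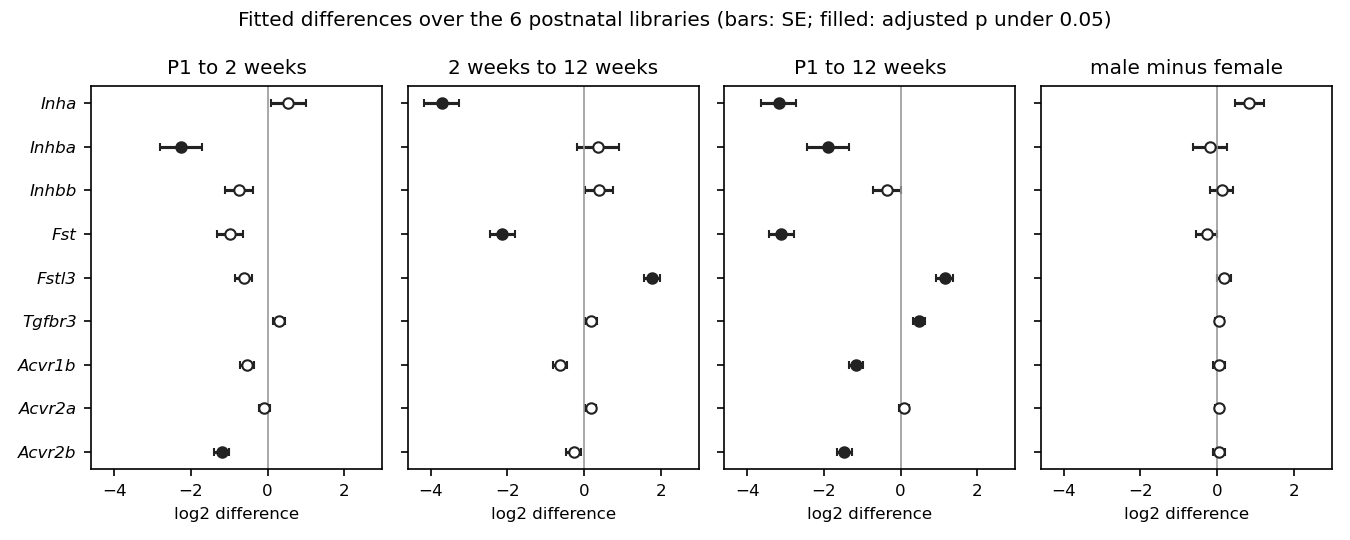
Fitted log2 differences of the 9 genes from limma over the 6 postnatal libraries, with the standard error as bars and filled points for an adjusted p under 0.05. Inha and Fst lie furthest below 0 from P1 to 12 weeks, Fstl3 lies furthest above, and no point is filled for sex.

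No member passed in the comparison of males with females with age as a block, in which 1 of all genes did (0.00598%, Xist) and 0 of the 9 had an unadjusted p under 0.05. In edgeR 0 of the 9 passed as well. Of all genes 0 passed in limma as higher in males, so the 4 Y chromosome genes did not pass either. Ddx3y was at 3793 normalized counts in 2-week male and at 1.76 in 2-week female. The fit could thus miss large sex differences, and a member that did not pass may still differ. Among the 9 genes the largest difference was that of Inha, 0.84 on the log2 scale (SE 0.375, adjusted p 0.999). At single ages the libraries were compared without a test. At P1, 2 of 9 genes were at least 2-fold apart, against 6.78% of all genes. Inha was 4.17-fold higher in P1 male (3.75 to 4.65) and Inhba 2.28-fold higher in the library labelled P1 female (1.81 to 2.88). Fst was 1.91-fold higher there (1.62 to 2.25).

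The P1 difference of Inha went with the cortex list, of which 9 of 10 genes were higher in P1 male, with a median log2 difference of 0.90. Of these 10 genes 1, the lipoprotein receptor Scarb1, had a larger ratio than Inha, with 48325 and 8997 normalized counts. Nr5a1, the steroidogenic factor that marks cortical cells, was at 5329 and 4798, a ratio of 1.11. The ratio of Inha to Nr5a1 was 0.346 in P1 male and 0.0920 in the library labelled P1 female. Zona glomerulosa genes went the other way, with 6 of 6 lower in P1 male and a median log2 difference of -1.16. Their sum was 1.76-fold higher in the library labelled P1 female. The part of these lists in the Inha difference was not tested.

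At 2 weeks 0 of the 9 genes were at least 2-fold apart, against 4.24% of all genes. Fstl3 was furthest apart of those whose interval did not include equal levels, 1.33-fold higher in males (1.05 to 1.69). At 12 weeks 1 gene was, against 8.83% of all genes. Inhba was 2.26-fold higher in 12-week male (1.33 to 3.93), and Inhbb was 1.98-fold higher there (1.54 to 2.56), just under the limit. Inha was 1.48-fold higher in 12-week male (1.07 to 2.05), and Fst, with 22 and 30 reads, was 0.906 times the female level (0.498 to 1.62). X-zone genes (3), which mark an inner cortical layer of young and female mice, summed to 1447 in 12-week male, where 1 of the 3 had more than 3 reads, and 4196 in 12-week female. Their part in these differences was not tested. Whether the sex differences changed with age was not tested.

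**Figure D4:**
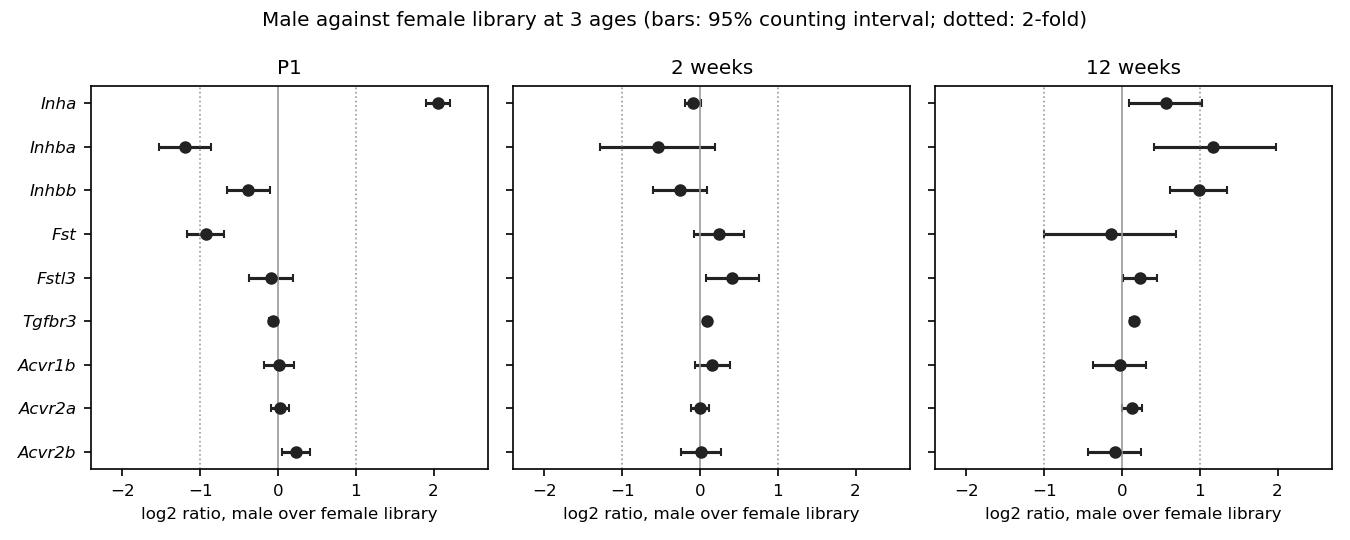
Log2 ratio of the male over the female library at 3 ages for the 9 genes, with the 95% counting interval as bars and dotted lines at 2-fold. Inha and Inhba lie beyond the lines at P1, on opposite sides, no gene does at 2 weeks, and Inhba does at 12 weeks.

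E18.5 was set beside each P1 library without a test. Against P1 male 0 of 9 genes were at least 2-fold apart, where 8.4% of all genes were. Inha was 1.75-fold lower in P1 male (1.66 to 1.84), Inhbb 1.47-fold higher (1.19 to 1.83) and Tgfbr3 1.24-fold higher (1.20 to 1.28). Against the library labelled P1 female 2 genes were, where 13.2% of all genes were. Inha was 7.30-fold lower there (6.58 to 8.11) and Inhba 2.24-fold higher (1.78 to 2.83), with Inhbb at 1.92-fold and Fst at 1.93-fold. Both comparisons share the E18.5 library. The make-up of the libraries differed as well. All 10 cortex genes were lower than at E18.5 in both P1 libraries, summed 1.45-fold in P1 male and 2.42-fold in the one labelled female. In the same order, skeletal muscle genes summed 1.99-fold and 3.91-fold higher, kidney genes 11.7-fold and 2.42-fold, and exocrine pancreas genes 208-fold and 3.17-fold. Liver genes, already at a sum of 286827 at E18.5, summed 1.30-fold and 1.01-fold higher. The part of these lists in the differences from E18.5 was not tested.

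Of 54 other genes of the wider activin, bone morphogenetic protein and TGF-beta pathway, 49 were tested. Nodal, Tdgf1, Wfikkn1, Nog and Foxh1 had too few counts. Over the whole time from P1 to 12 weeks 6 rose and 27 fell, with a median log2 difference of -0.59. In the first step 3 rose and 13 fell, from 2 weeks to 12 weeks 4 rose and 5 fell, and 0 passed for sex, where 0 also had an unadjusted p under 0.05. These counts stand beside the same 41.2, 16.4, 15.3 and 0.00598% of all genes. From P1 to 12 weeks 23.5% of all genes fell and 17.6% rose, which are also the shares for the counts by role below. In the first step 10.5% fell and 5.89% rose, and from 2 weeks to 12 weeks 9.89% fell and 5.4% rose. For the step over both intervals 11 of the 49 passed without the library labelled P1 female, 13 without P1 male, and 21 without 2-week male or 2-week female. From P1 to 2 weeks 0 passed without either P1 library, 1 without 2-week male and 5 without 2-week female. From 2 weeks to 12 weeks 3 passed without either P1 library and 1 without either 2-week library.

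Among the other ligands 8 of 11 fell and 1 rose from P1 to 12 weeks. Inhbc and Inhbe, liver-made relatives of the activin subunits, and Mstn (myostatin, made by muscle) had 0 reads in both 12-week libraries. At P1 Inhbe had 46.6 and 144.6 normalized counts, male library first, so it was at least 11.1-fold and 42.6-fold lower at 12 weeks, taking 3 reads per library as the floor. Mstn, at 59.7 and 64.0, was at least 14.2-fold and 18.9-fold lower, and Inhbc, at 18.0 and 39.7, at least 4.29-fold and 11.7-fold lower. Liver genes (8) summed to 371616 and 290231 at P1 and to 527.1 and 417.5 at 12 weeks, and skeletal muscle genes to 72648 and 142592 at P1 and 662.7 and 587.2 at 12 weeks. Their part in these falls was not tested. Bmp7, a bone morphogenetic protein, rose by 1.42 from 2 weeks to 12 weeks (SE 0.280, adjusted p 0.0211).

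Other receptors and co-receptors held 2 that rose and 5 that fell of 12 from P1 to 12 weeks. Igsf1, a membrane glycoprotein, fell by 2.37 in the first step (SE 0.288, adjusted p 0.00512), from 265.1 and 191.0 normalized counts at P1 to 47.1 and 38.8 at 2 weeks. Acvr1c, an activin and nodal type I receptor also called ALK7, was chosen after its values were seen. At E18.5 it was at 1606 normalized counts. Male libraries held 455.8, 1537 and 1934 at P1, 2 weeks and 12 weeks, and those labelled female 341.1, 1535 and 781.8. It was thus lowest in the P1 libraries, and it rose by 1.96 from P1 to 2 weeks (SE 0.297, adjusted p 0.00926), while Acvr1b had its highest values at P1.

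Among the other binding proteins 4 of 7 fell and 1 rose from P1 to 12 weeks. Fstl1, a follistatin-like matrix glycoprotein, was at 15908 and 11966 normalized counts at P1 (male, then female-labelled), 4015 and 4750 at 2 weeks, and 1611 and 1168 at 12 weeks. It fell by 1.66 in the first step (SE 0.206, adjusted p 0.00550) and by 1.67 in the second (adjusted p 0.00476). Wfikkn2, which binds myostatin and GDF11, fell by 2.84 from P1 to 2 weeks (SE 0.460, adjusted p 0.0114). In the Smad relay 8 of 15 fell and 1 rose from P1 to 12 weeks, and among 4 proprotein convertases, which cut such precursors, 2 fell and 1 rose.

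**Figure D5:**
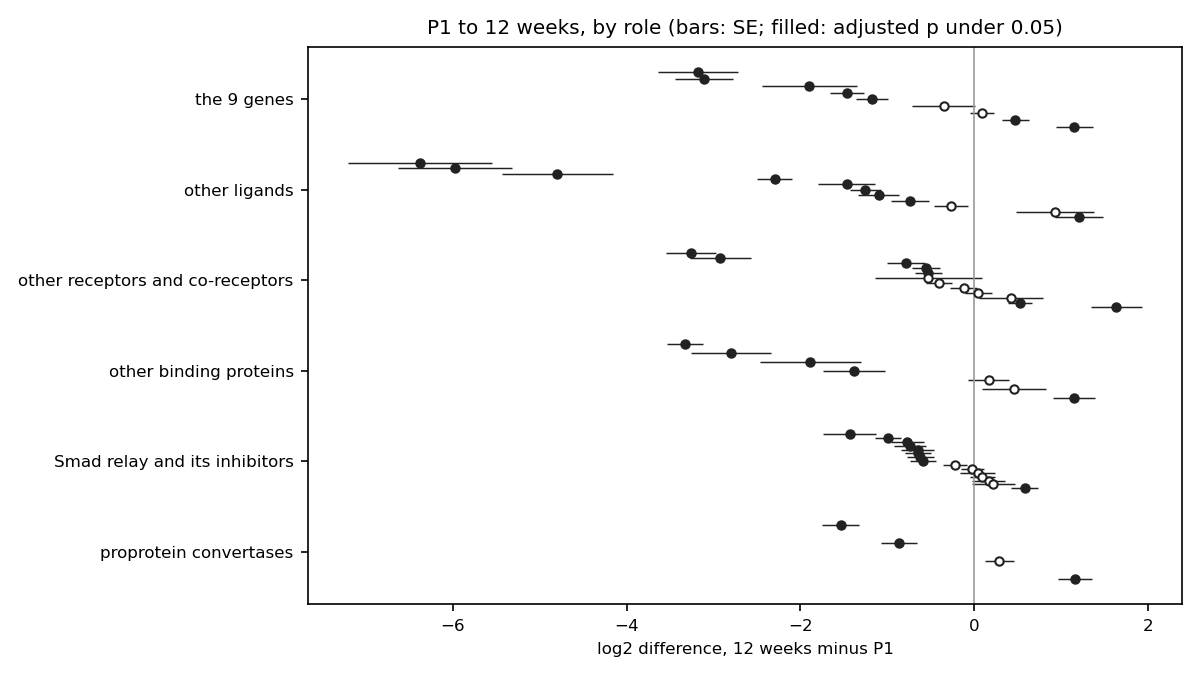
Log2 difference from P1 to 12 weeks for the 9 genes and the other pathway genes by role, with the standard error as bars and filled points for an adjusted p under 0.05 in limma. Most filled points lie below 0 in each role, and the furthest are the ligands Inhbe, Mstn and Inhbc, which had 0 reads at 12 weeks, so that their positions depend on the pseudocount.

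Genes with a profile like that of a member were named by Pearson's r of log2 values over the 7 libraries, among 12254 genes (12255 for Inhba) whose mean reached 100 normalized counts. The values share library scaling. For Inha they were the agouti gene (symbol a, r = 0.991, 16.8 to 1291 normalized counts), Mex3c, 2810025M15Rik and Wee1. For Inhba they were Tmod1 (r = 0.995), Rspo1 (a Wnt co-agonist, 0.985), Reck and Eda. For Fst the closest was 2700081O15Rik (r = 0.996), for Fstl3 Lrrc2 (0.977), for Inhbb Fam207a (0.968) and for Tgfbr3 Clcc1 (0.991). Emp2 was closest to Acvr1b (0.998), Lrig2 to Acvr2a (0.982) and Gpc1, a glypican, to Acvr2b (0.995). Among the members themselves the lowest r was between Acvr2b and Tgfbr3 (-0.92).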

How the data were processed

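RNA from pooled adrenal glands was extracted with guanidinium thiocyanate and made into standard Illumina libraries, per the labels' protocols. The submitters' processing notes name CASAVA 1.8.2, HISAT2 2.1.0, HTSeq 0.9.1, DESeq2 2.11.40.6 and the build mm10, with no role. The annotation and strand setting are not given in the sources used here. The authors deposited 1 table of a normalized signal (gene counts divided by 1 size factor per library), and 100% of the values came out as whole reads within 0.01 reads.

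Differences were fitted here with limma 3.58.1 in R 4.3.3 on log2(normalized count + 1), a scale that understates the change of low genes. The model held age and sex over the 6 postnatal libraries (2 residual degrees of freedom), with a trend in eBayes, two-sided, and Benjamini-Hochberg adjustment over 16720 genes with a mean of at least 10. The threshold was an adjusted p of 0.05. P-values measure the spread between these pools that age and sex leave. edgeR 4.0.16's quasi-likelihood test on the recovered counts (2854, 2441, 6781 and 1 genes called in the 4 comparisons, P1 to 2 weeks first and sex last), other scalings, pseudocounts and filters, and leaving out each library were alternatives. Comparisons of single libraries had no test. Ratios carry exact binomial 95% intervals and values exact Poisson ones. These intervals cover counting error only, because they come from the reads of single pools. PCR copies carry no molecular identifiers, so the intervals may also understate that error. Scripts were tested on simulated data. The members, the pathway and marker lists and the tests were chosen with earlier results of these data known. Besides the members, the 4 other pathway genes with the largest change past the threshold in each comparison are named, and for each member the 4 genes most like it were ranked. One gene that this rule names is not reported here.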

Additional observations from a re-analysis of the deposited data

Results flagged for a closer look

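Inha went opposite ways in the sexes between P1 and 2 weeks, with counting intervals that did not include equal levels in either. Its log2 change was -0.53 in males and 1.61 in females. The library labelled P1 female holds Xist (8103 normalized counts) and some transcripts of the Y chromosome. It had the lower cortex list and the higher zona glomerulosa list of the P1 libraries.

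Inhbb went opposite ways between P1 and 12 weeks, with a log2 change of 0.33 in males and -1.03 in females. Neither difference between the sexes was tested, since each age and sex had 1 pool.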

How the results depend on the processing

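Members called under other settings, in the order P1 to 2 weeks, 2 weeks to 12 weeks and P1 to 12 weeks, were 0, 0 and 4 without the filter on low values, and 1 in the first without a trend in eBayes. Leaving out 1 library in turn gave 0 to 4, 1 to 5 and 4 to 7. Other pathway genes called were 0, 0 and 17 without the filter, 8 and 4 in the first and second without a trend, and 0 to 20, 1 to 12 and 11 to 28 with 1 library left out. Over all genes the filter or trend moved the first counts to 0 or 1672 and the second to 0 or 1661, and leaving out libraries gave 2 to 4461, 421 to 3035 and 3207 to 6271 (0 to 51 for sex). With 1 library left out, the log2 difference ranged from -0.37 to 1.45 for Inha (P1 to 2 weeks), from -0.63 to 1.37 for Inhba and -0.25 to 1.04 for Inhbb (2 weeks to 12 weeks), and from -0.995 to 0.30 for Inhbb (P1 to 12 weeks). For sex it ranged from -0.85 to 0.31 for Inhba, -0.32 to 0.36 for Inhbb, -0.53 to 0.055 for Fst, -0.0054 to 0.087 for Acvr1b and -0.042 to 0.12 for Acvr2b. With equal totals Acvr2a was at -0.029 from P1 to 12 weeks, and 2 members were at least 2-fold apart between the sexes at 12 weeks. At a limit of 1.5-fold the members apart were 2 between the 12-week sexes, 1 from E18.5 to P1 male and 4 from E18.5 to P1 female. Shares of all genes at that limit, or at 2-fold with equal totals, are not given here. These counts of members therefore cannot be set against a background. Of 378 values for age, 327 kept their direction and side of the threshold, 36 lost the call, 8 gained it and 7 changed sign. Of 126 for sex 10 changed sign, and of 180 for single libraries 4 moved. Apart from the scaling and fewer libraries themselves, the cause was not tested. A library left out leaves 1 group with a lone pool, which is assumed to vary like the others. No paired analysis was possible because each group has 1 library and the labels give no replicate numbers to use as a block. Libraries were matched by age and sex, which the model already holds. Depth limits Fst at 12 weeks and Inhba from 2 weeks on most, with 22 to 42 reads per library.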
